A study of Dunaliella salina with 9 samples.

Results

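Of 76875 transcript clusters listed for the unicellular green alga Dunaliella salina, 207 peaked only at the intermediate of 3 irradiances. RNA was sequenced from cells grown at 22 °C under 150 µmol photons m⁻² s⁻¹ with 16 h of light and 8 h of dark, moved to fresh medium in mid-exponential growth, and given 150 (LL), 600 (ML) or 1500 µmol photons m⁻² s⁻¹ (HL), with 3 libraries in each group. No genetic change or other treatment is named, and how long the cells stayed at the new light is not stated in the labels. Levels are counts per 1000000 counts of the library (CPM). A cluster was a member when its ML mean was at least 5 CPM and at least 3 times both the LL and the HL mean, when the LL and HL means were above 0 and within 1.5-fold of each other, and when its lowest ML library lay above all 6 LL and HL libraries.

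A rise in irradiance sets off photoacclimation in green algae: the light-harvesting antenna is cut back, and carbon fixation, photoprotection and repair of photosystem II are adjusted to the new supply of light. Dunaliella salina is known in addition for building up carotenoids in strong light and glycerol in salt. The files do not pair cluster identifiers with gene names, and 0 of the 76875 identifiers matched the 16683 genes listed for the Dunsal1 v. 2 assembly, so no role can be given to any of the 207 clusters and no sequence is shown. They are described by level, size of the peak, spread between libraries, length and type of count, and only 4 are given by identifier. All 9 values of a cluster entered the choice, so the levels and ratios below are a description of what was chosen and carry no test.

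Library totals ranged from 17778225 to 19643714 counts, and 3 counts, the upper limit that a count of 0 allows, corresponded to 0.153 to 0.169 CPM, for counting error only. The labels do not say that the 3 libraries of a group came from separate cultures, so spread between them may be technical. The authors' counts are estimates and carry decimals, which can arise where a read is divided among similar sequences. Of the 207 clusters, 172 had a non-whole count in at least 1 library and 35 had whole counts in all 9.

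Of the clusters with enough reads in ML, few stood 3-fold above LL there, and a part of those stayed high in HL. An ML mean of at least 5 CPM was reached by 15307 clusters, and 608 of these stood at 3 times the LL mean or more. Of the 608, 348 also stood at 3 times the HL mean or more, and 332 of those had LL and HL means above 0. The LL and HL means lay within 1.5-fold of each other for 212, and 5 of these dropped out because an ML library overlapped an LL or HL library. The limits cut through a continuous range. The lowest ML mean inside was 5.162 CPM and the highest outside, with every other condition met, was 4.963 CPM. For the fold over the higher of LL and HL, the nearest values were 3.003 inside and 2.992 outside, where 1801 clusters failed this condition alone. For the ratio of the larger to the smaller of LL and HL they were 1.492 and 1.501, and for the lowest ML over the highest other library 1.006 and 0.8036.

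**Figure D1:**
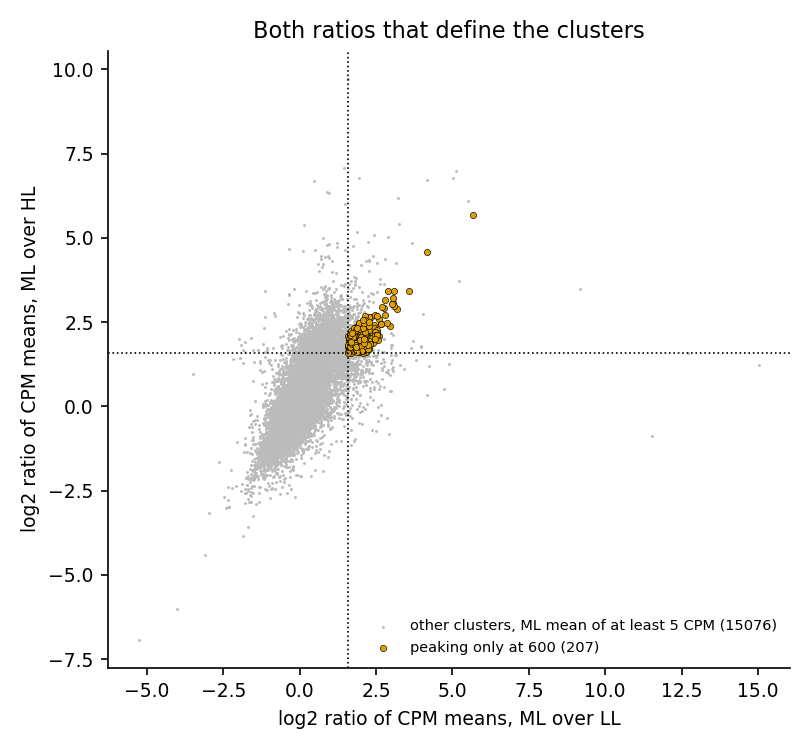
Log2 ratio of the ML mean to the LL mean (x axis) and to the HL mean (y axis), in CPM, for every cluster with an ML mean of at least 5 CPM and LL and HL means above 0. Dotted lines mark 3-fold, and the 207 members (filled) lie above both lines and close to the diagonal because their LL and HL means were required to be alike.

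The peak was mostly below 4 times the higher of the LL and HL means, where the rule required at least 3. The ML mean exceeded the higher of the LL and HL means by less than 4-fold in 144 of the 207 clusters, by 4-fold to below 6-fold in 49 and by at least 6-fold in 14, with a median of 3.55 and a highest value of 51.1. Against LL alone the median ratio was 3.87, and against HL alone 4.03. Over all 34377 clusters tested, the median ratios in CPM were 1.05 for ML over LL and 1.21 for ML over HL. In 186 of the 207, the lowest ML library was at least 2 times the highest of the 6 other libraries.

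The 207 clusters together took 0.608% ± 0.0045 of all LL counts, 2.13% ± 0.049 of the ML counts and 0.587% ± 0.03 of those in HL (mean ± SD over 3 libraries). By library, this share was 0.612%, 0.603% and 0.609% in LL, 2.09%, 2.18% and 2.12% in ML, and 0.574%, 0.565% and 0.622% in HL. The LL and HL ranges overlapped, and every ML library was above both. The counts were concentrated: the 10 members with the highest ML mean CPM held 54.7% of the members' ML counts and the 20 highest held 73.6%. Without those 10, the share was 0.26% ± 0.0021 for LL libraries, 0.965% ± 0.037 for ML and 0.248% ± 0.012 for HL. The 35 clusters with whole counts in every library took 0.0578% ± 0.00091, 0.21% ± 0.011 and 0.0553% ± 0.0033 of the counts. That ML was highest in each of these sums follows from the rule, which every member met.

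**Figure D2:**
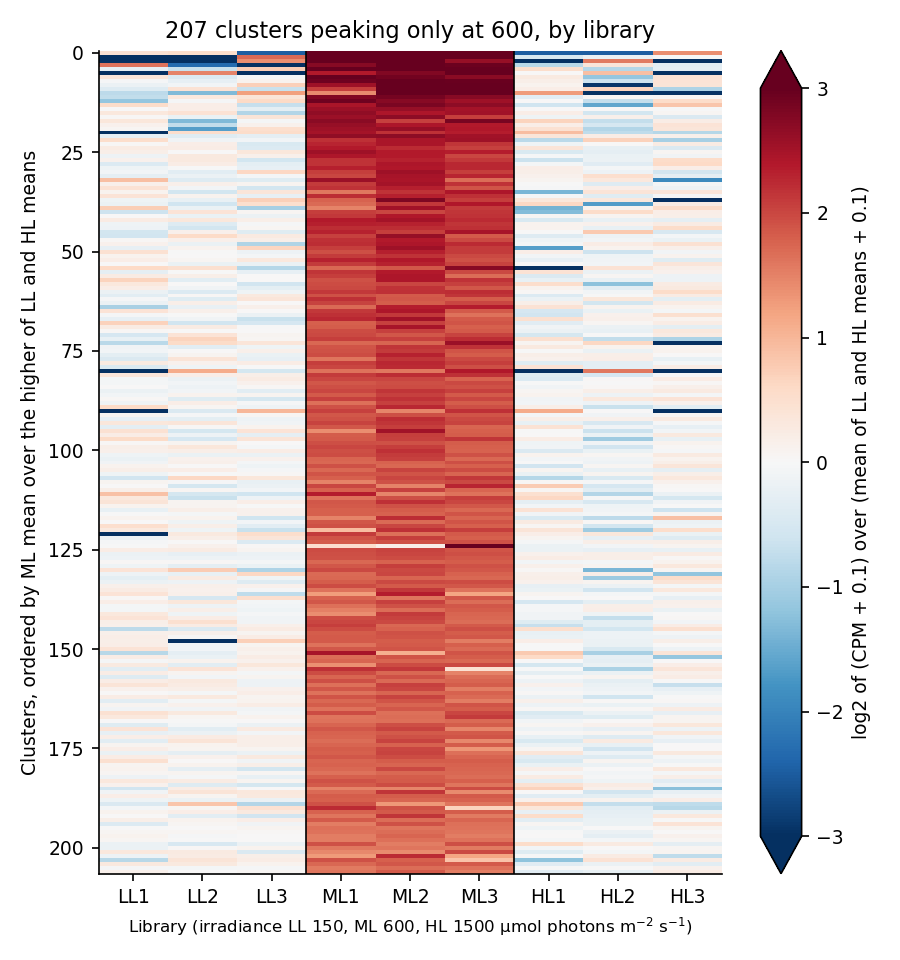
Level of each of the 207 clusters (rows) in each library (columns), as log2 of CPM + 0.1 over the mean of the LL and HL means + 0.1. Rows run from the largest peak at the top (51.1-fold) to the smallest at the bottom (3-fold), and dark blue cells in LL and HL include clusters listed at 0 in a library.

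The cluster with the most reads, Cluster-5009.34983, was read at 739, 737 and 692 CPM in LL, at 2385, 2450 and 2548 CPM in ML, and at 676, 695 and 778 CPM in HL. The LL and HL libraries overlapped, and the lowest ML library stood 3.07 times above the highest of them. Its group means were 723 ± 26.9, 2461 ± 82.2 and 716 ± 54.1 CPM (SD, n = 3 each), a log2 ratio of 1.77 for ML over LL and 1.78 for ML over HL. It also had the highest level per length among the 207, at a mean of 1428 FPKM (the authors' value per length and depth) in ML, against 420 in LL and 414 in HL.

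Cluster-5009.35188 came next by reads. It stood at 561, 552 and 564 CPM in LL, at 1707, 1824 and 1788 CPM in ML, and at 573, 574 and 624 CPM in HL. The HL libraries all lay above the LL libraries by a small margin, with an HL over LL ratio of 1.06. Its log2 ratio was 1.67 for ML over LL and 1.59 for ML over HL, just inside the 3-fold limit. Both of these clusters had non-whole counts.

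The member with the most reads among those with whole counts in all 9 libraries behaved in the same way at a lower level. Its values were 122, 123 and 121 CPM in LL, 366, 380 and 360 CPM in ML, and 117, 105 and 119 CPM in HL. Its ML mean was 3.03 times the LL mean and 3.24 times the HL mean.

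The 2 other clusters given by identifier had larger ratios and few reads in LL and HL, and a single LL library set the size of their ML over LL ratios. Cluster-5009.21586 was listed at 0 in 2 LL libraries and at 4.21 CPM in the third, at 29, 19.1 and 27.6 CPM in ML, and at 0.864, 1.08 and 1.21 CPM in HL. Its mean fell from 25.2 ± 5.38 CPM in ML to 1.05 ± 0.173 CPM in HL (SD, n = 3 each), a ratio of 24 for ML over HL. The ratio of ML to LL was 17.9 with all libraries. Without the LL library at 4.21 CPM, both others are at 0, and a limit of 3 counts per library gives a ratio of 149. That limit covers counting error only. The cluster had non-whole counts, and its LL libraries differed by far more than 3 counts, so 149 is not a firm lower bound. Cluster-5009.21586 was also the longest member by the length implied from count and FPKM, at 7434 bases.

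Cluster-5009.29899 was read at 10.7, 0.606 and 0 CPM in LL, at 23, 45.7 and 26.6 CPM in ML, and at 1.85, 4.36 and 2.7 CPM in HL. The ML libraries were spread widely but all lay above the LL and HL libraries, and 1 LL library stood far above the others. Its mean fell from 31.7 ± 12.2 CPM in ML to 2.97 ± 1.28 CPM in HL (SD, n = 3 each), a ratio of 10.7. Its ML over LL ratio was 8.43 with all libraries and 105 without LL replicate 1.

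**Figure D3:**
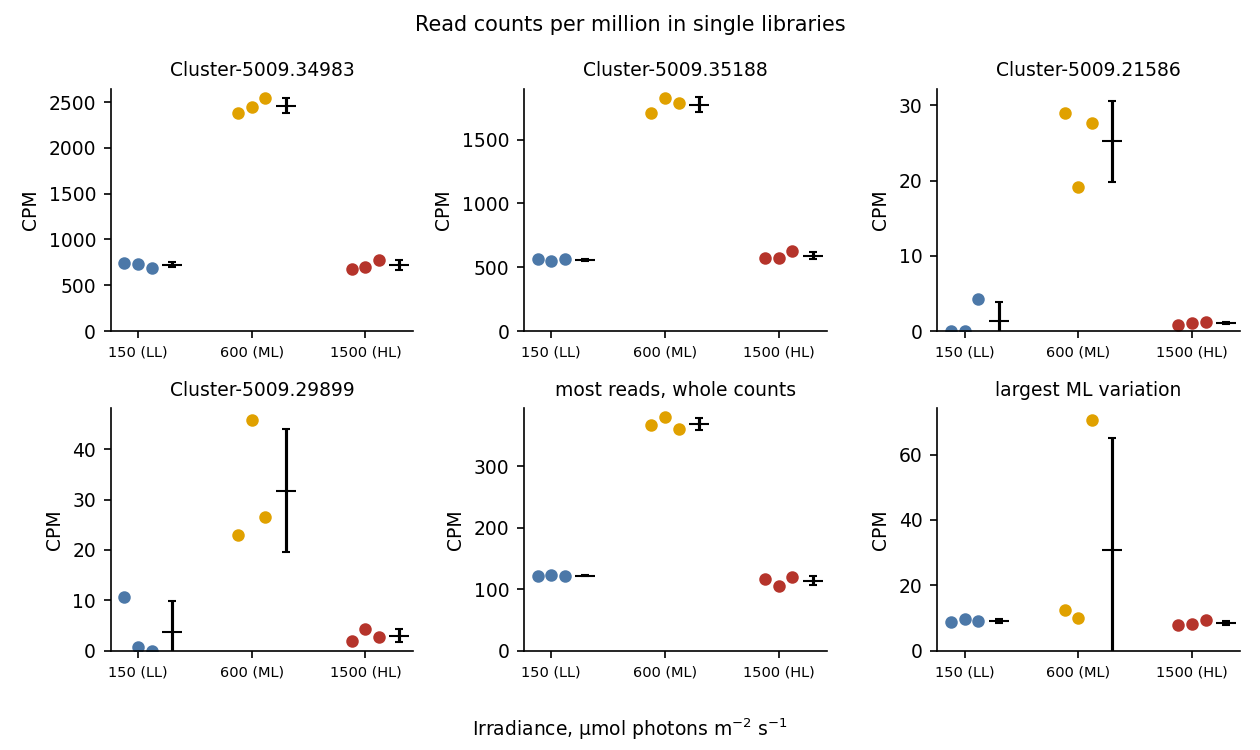
CPM in each library (points) by irradiance for the 4 clusters given by identifier, for the member with the most reads among those with whole counts, and for the member with the largest variation within ML. Black marks give the mean and SD of 3 libraries, with bars cut at 0, and in the last panel 1 ML library at 70.5 CPM stands alone.

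The peak was smaller where the flanking level was higher. Members were grouped by the mean of their LL and HL means: 9 lay below 1 CPM, 114 at 1 to below 5 CPM, and 84 at 5 CPM or more. The median fold over the higher of LL and HL was 7.45, 3.7 and 3.41 in these groups. The ML floor of 5 CPM requires a large ratio of the lowest group, and a ratio above 3 in part of the middle group. The flanking level also enters the fold as its divisor. For both reasons, this order follows in part from the choice. Only 2 of the 14 clusters with a fold of at least 6 had a flanking mean of 5 CPM or more. Whole counts in all 9 libraries were found in 0 of the 14. They were found in only 16.9% of the 207, so few would fall among 14 clusters. The largest fold among the whole-count members was 5.53.

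The cluster with the largest fold, of 51.1, was read at 27.2, 19.3 and 22.9 CPM in ML, at 0.654, 0.694 and 0 CPM in LL, and at 0, 0 and 1.36 CPM in HL. Its lowest ML library stood 14.2 times above the highest other library, the widest gap among the 207. In all, 14 clusters were listed at 0 in at least 1 LL or HL library. No member could be at 0 in an ML library, since the rule placed every ML library above the others.

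Libraries of a group varied most in clusters with few reads. The median coefficient of variation over the 3 libraries was 15.7% for LL, 10.8% for ML and 17.5% for HL. In clusters with a flanking mean of 5 CPM or more it was 6.61%, 6.5% and 8.94%. The 6 LL and HL libraries spanned more than 3-fold or included a 0 in 44 clusters, all of them with non-whole counts, and in 0 of the 35 clusters with whole counts. Across the whole-count members the median variation within ML was 9.02%, against 11.2% in the others.

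In 3 clusters, 1 ML library stood more than 2 times above each of the other 2. The most extreme read 12.4, 9.92 and 70.5 CPM in ML, 8.65, 9.58 and 8.93 CPM in LL, and 7.78, 8.25 and 9.25 CPM in HL. Without ML replicate 3, its ML mean was 1.23 times the LL mean and 1.32 times the HL mean, so that it is a member through 1 library. At the other end, the member with the smallest variation in ML, 0.667%, read 1087, 1084 and 1098 CPM there, against 342, 343 and 361 CPM in LL and 279, 286 and 317 CPM in HL.

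When the rule was applied again without each library in turn, 107 of the 207 clusters were members in all 9 cases. Leaving out the ML libraries kept 165 in all 3 cases, the LL libraries 142 and the HL libraries 143.

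Tested by edgeR's quasi-likelihood test over all 34377 clusters with enough counts, which included all 207, 194 members were called higher in ML than in LL at a Benjamini-Hochberg adjusted p below 0.05, where 17.1% of all clusters were. Lower in HL than in ML were 196 members, where 29.9% of all clusters were. The 194 were called in both tests. The rule used both contrasts, and ML libraries with at least 5 CPM can pass the filter on counts alone, so nothing is read from these counts. Libraries that do not overlap were required here, and 23.4% of all tested clusters had every ML library above the 6 others.

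LL and HL were alike only within the limit set. The HL over LL ratio of the members ran from 0.67 to 1.49 with a median of 0.959, beside a median of 0.9 over all tested clusters. The side on which HL fell depended on the scaling: HL was above LL in 80 of the 207 in CPM and in 125 with TMM factors, which correct for differences in composition between libraries and moved the medians to 1.08 and 1.01. Every HL library lay above every LL library in 21 members (22.7% of all tested clusters) and below in 31 (34.4%), while the libraries overlapped in 155. By edgeR's test, 43 members differed between HL and LL, 33 higher and 10 lower in HL, where 44.6% of all clusters differed in either direction. With no factors beyond the library totals, 14 members were called higher and 22 lower in HL. The share of all clusters called in each direction was not taken, so neither split can be set against that of all clusters. The rule bounds this contrast too, so these counts describe the members and nothing is read from them.

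Clusters that met every condition except likeness of LL and HL were mostly lower in HL. There were 114 of them, 94 with LL above HL and 20 with HL above LL. CPM leaned the same way over all tested clusters. Every HL library lay below every LL library in 34.4% of those and above in 22.7%, with a median HL over LL ratio of 0.9. Applied to TMM-scaled values, the conditions selected a different set, in which 68 had LL above HL and 17 the reverse. The share of all clusters beyond the likeness limit in each direction was not taken, so nothing is read from either split.

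The same rule with the groups exchanged gave 117 clusters that peaked only in HL and 3 that peaked only in LL. The mirrored rule, with LL and HL means of at least 5 CPM and at least 3 times an ML mean above 0, gave 45 clusters that dipped only in ML. None of these differences in number was tested. All of these numbers are for CPM on library totals. With TMM-adjusted library sizes, the number that peaked only in ML was 157, and the numbers of the other groups are not given.

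Some properties had no part in the rule. Whole counts in all 9 libraries were found in 16.9% of the 207 clusters and in 43.7% of the 15302 tested clusters with an ML mean of at least 5 CPM. The share among members was lower at every level, from 13.4% against 46% at 5 to 10 CPM in ML to 15.6% against 39.1% at 100 CPM or more. It was 15.4% among the clusters that peaked only in HL and 20% among those that dipped only in ML, so a low share was also seen in these other groups of clusters. Where reads are divided among similar sequences, levels of single clusters are less certain and clusters may share reads, so the 207 cannot be counted as separate genes. The part of divided reads in the peaks was not tested.

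The length by which FPKM divides a count was implied by dividing count by FPKM. It differed between libraries, so it is not the sequence length of the cluster itself. Its median was 1694 bases in the 207 and 1376 bases in the tested clusters with an ML mean of at least 5 CPM. At least 2500 bases were implied for 29% of the members and 18.8% of those clusters, and less than 500 bases for 6.76% and 10.2%. By level in ML, the members' median was above that of all tested clusters in each of the 5 ranges, by the least at 20 to 50 CPM, with 1620 against 1578 bases, and by the most at 10 to 20 CPM, with 1987 against 1303 bases. Clusters that peaked only in HL had a median of 1005 bases and those that dipped only in ML 1350 bases. These differences carry no test, since clusters that share reads are not independent.

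**Figure D4:**
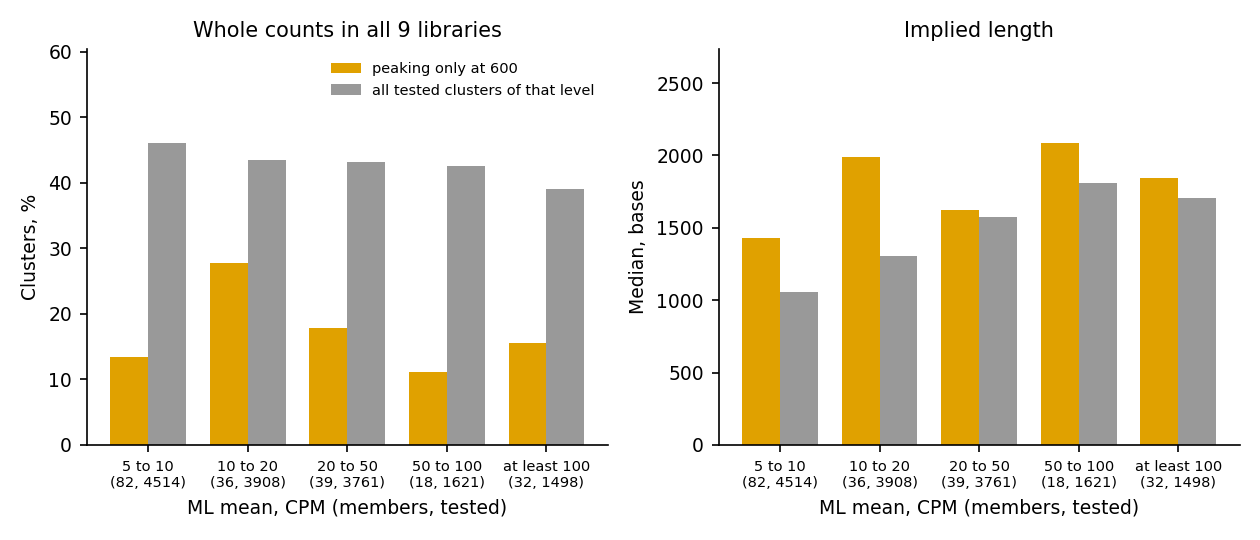
Share of clusters with whole counts in all 9 libraries (left, %) and median implied length (right, bases) in 5 ranges of the ML mean in CPM, for the members and for all tested clusters of the same range, with the number of each in brackets. The members' bars are lower on the left and higher on the right in every range.

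The variation within ML was wider in members than in all tested clusters of the same ML level. Its median was 15.5% against 11.8% at 5 to 10 CPM, 10.1% against 6.19% at 20 to 50 CPM, and 4.05% against 3.52% at 100 CPM or more. A single high ML library raises both the ML mean that chose a cluster and its variation, so this measure was not independent of the choice.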

How the data were processed

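RNA was extracted with Trizol and 1.5 µg per sample went into NEBNext Ultra libraries, per the labels' protocols. The authors deposited, per the file headers, an estimated count and an FPKM value for each of 76875 clusters in each of 9 libraries. The estimated counts are not scaled, and the FPKM values were scaled by the authors to length and depth. DESeq 1.10.1 is listed in the submitters' processing notes, and no source used here names an assembler, aligner or counter. The length implied by count and FPKM differed from library to library by a nearly constant number of bases, up to a median of 11.4 above LL replicate 1, so that FPKM of short clusters also carries this difference.

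CPM was computed on library totals with pandas 2.3.3. A count was taken as whole within 1e-06. Implied length is the median over libraries with an FPKM of at least 0.5. For the tests, counts were rounded and fitted with edgeR 4.0.16 in R 4.3.3: the default filter left 34377 clusters, with TMM factors averaging 1.03 for LL, 1.06 for ML and 0.918 for HL libraries, a robust quasi-likelihood fit with group as the only term over all 9 libraries, and Benjamini-Hochberg adjustment over all clusters tested. The procedure was tested on simulated data. The members, groupings and comparisons were chosen with earlier results of these data known. The clusters given by identifier are the 2 members with the highest ML mean CPM and, of the others with an HL mean of at least 1 CPM, the 2 with the largest ratio of ML to HL. Others are described by a place in the list. The alternatives were other scalings, thresholds, DESeq2 1.42.0, no filter, a replicate block and leaving out each library.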

Additional observations from a re-analysis of the deposited data

How the results depend on the processing

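The number of clusters that peak only at 600 depends on the limits set. It was 207 as reported, 487 with an ML floor of 1 CPM and 125 with 10 CPM, 602 at 2-fold and 63 at 4-fold, 124 with a narrower limit on the difference of LL and HL and 256 with a 2-fold limit, 212 on group means only, and 35 with whole counts only. It was 157 with TMM-adjusted and 157 with RLE-adjusted library sizes, and 227 on the deposited FPKM. These shared 143, 140 and 146 clusters with the 207, and 98 were members under all 3 as well. Leaving out each library gave 185 to 225. Members called higher in ML than in LL numbered 187 to 195, lower in HL than in ML 190 to 197, and different between HL and LL 36 to 42 when each library was left out. With DESeq2 they were 193, 194 and 44, and without a filter 188, 190 and 37. Same-numbered libraries did not deviate together (correlations of −0.0385 to 0.0109), so the numbers were not taken as pairs. With a replicate block, the calls were 190, 193 and 39. The share of all clusters called was taken for the main setting only. The rule used or bounded all these contrasts, so nothing is read from the counts of members called. The log2 ratios of the 4 clusters given by identifier kept their direction under TMM-adjusted sizes, FPKM and each library left out. Each was taken for the contrast that named it. The rule placed every ML library above all others, so leaving out a library could not reverse a ratio. Nothing is read from the kept direction. Ratios of members with a flanking mean below 1 CPM rest on low levels and on libraries that differed widely. The median coefficient of variation there was 60.5% in LL and 92.5% in HL. The part of depth in this spread was not tested.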

Other observations

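The shortest member had an implied length of 10 bases. It stood at 3.43 CPM in LL, 10.8 in ML and 2.85 in HL, but at 378, 1014 and 261 FPKM. Its implied length ran from 8.4 bases in LL to 12 bases in HL, so the length by which FPKM divides differed between libraries. The value of 10 bases is therefore not the sequence length of the cluster. FPKM ranks it among the highest members, although it holds few reads.

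ML replicate 2 was the highest ML library in 125 of the 207 clusters in CPM and in 87 with TMM factors. Among tested clusters with an ML mean of at least 5 CPM it was the highest in 48.3% in CPM. That share was not taken with TMM factors, so the 87 cannot be set against it.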
